A study of Homo sapiens with 38 samples.

Results

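The 9 libraries described here, of 38 in the series, were H3K27ac CUT&Tag libraries from K562 cells made with Abcam-ab177178 (ab177178) at 1:100, Abcam-ab4729 (ab4729) at 1:100 and Diagenode at 1:50. The 6 benchmark libraries, 2 replicates per antibody, were set against the 3 first libraries that had been made while antibodies were being screened, 1 per antibody at the same dilution. They were chosen by these labels, and all 9 shared 15 PCR cycles and SDS extraction and were made without trichostatin A (TSA), an inhibitor of histone deacetylases. K562 is an established human chronic myeloid leukaemia line that carries the BCR-ABL1 fusion. It is 1 line without a treatment arm, and the labels do not say whether replicates came from separate cultures, so that p-values measure the spread between these libraries only. The sets were made at different stages of the study, and each benchmark library held more unique fragments and a lower duplication rate than the first library of its antibody in the study's sequencing metrics. Stage, depth and set therefore cannot be told apart. In the same metrics the margin in unique fragments was smallest with ab4729 and largest with ab177178. By total fragments, the first ab4729 and Diagenode libraries exceeded their benchmark libraries, whereas the first ab177178 library fell below its own.

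H3K27ac, acetylation of lysine on the tail of histone H3, marks active promoters and enhancers. In CUT&Tag an antibody bound to the mark in permeabilised cells directs a tethered Tn5 transposase, which cuts and tags the DNA next to it, and the tagged fragments are then amplified and sequenced. Peak callers turn the piled-up fragments into intervals. MACS2 scores local enrichment against a model of background, and SEACR takes blocks of unbroken signal above a threshold, so that its peaks are wider. K562 cells resemble early erythroid and megakaryocytic progenitors and express embryonic and fetal globin genes.

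Peaks of the 3 lists of an antibody were merged into regions where they overlapped by at least 1 bp, separately for each caller. Regions called in both benchmark libraries and absent from the first library of the antibody are called gained regions, a name for a pattern of calls and not for a change in the cells. When all 9 MACS2 lists were merged at once, 13469 regions were called in all 6 benchmark libraries, and 945 of them (7.02%) were called in no first library. The windows below show such regions at the sequence level. Each holds 200 bases around the MACS2 summit (hg19, plus strand), taken from the regions with the highest mean percentile within the benchmark lists, with windows that touched an annotated exon passed over. Capitals mark matches on either strand to 1 of 8 motifs. These were the GATA factor words AGATAA and TGATAA, the AP-1 motif TGANTCA, the E-box CACGTG, the ETS motif CCGGAAG, the NF-Y motif CCAAT, the SP and KLF motif GGGCGGG, and the palindromic NRF1 motif.
LINC00383 promoter, chr13:69796798-69796997: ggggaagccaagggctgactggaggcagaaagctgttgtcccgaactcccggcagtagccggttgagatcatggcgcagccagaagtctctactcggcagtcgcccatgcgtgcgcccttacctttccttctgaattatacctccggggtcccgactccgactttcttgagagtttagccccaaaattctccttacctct
FAM241A intron, at the start of the pseudogene RPL36AP19, chr4:113091642-113091841: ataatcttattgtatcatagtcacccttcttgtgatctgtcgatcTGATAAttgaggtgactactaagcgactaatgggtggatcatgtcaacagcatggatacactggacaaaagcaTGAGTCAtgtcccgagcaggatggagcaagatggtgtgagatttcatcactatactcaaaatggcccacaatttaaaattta
distal, intergenic near DRD4, chr11:642691-642890: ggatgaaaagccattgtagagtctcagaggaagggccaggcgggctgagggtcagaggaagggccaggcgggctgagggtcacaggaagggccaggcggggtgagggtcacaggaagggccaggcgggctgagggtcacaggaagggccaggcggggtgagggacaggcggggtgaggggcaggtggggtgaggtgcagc
distal, PLPP7 intron, chr9:134188555-134188754: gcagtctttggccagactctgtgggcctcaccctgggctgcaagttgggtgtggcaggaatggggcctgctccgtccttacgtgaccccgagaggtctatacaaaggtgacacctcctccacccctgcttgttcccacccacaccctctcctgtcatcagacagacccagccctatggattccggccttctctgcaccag
distal, intron of a non-coding gene, FOXN2 nearest, chr2:48373300-48373499: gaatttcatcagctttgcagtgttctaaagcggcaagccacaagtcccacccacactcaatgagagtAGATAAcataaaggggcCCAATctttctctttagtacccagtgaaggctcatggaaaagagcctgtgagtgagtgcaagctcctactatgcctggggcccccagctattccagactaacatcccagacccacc

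The window near DRD4 was built of a short repeated unit, with 1 word of 12 bases present 5 times. For the region near DRD4, the first in rank of the distal windows, MACS2 fold enrichment was 84.5 and 85.4 in the ab177178 benchmark libraries, 76.4 and 85.9 with ab4729 and 80.2 and 107.1 with Diagenode. SEACR nevertheless called this region in all 3 first libraries. The FAM241A and PLPP7 windows were called by SEACR in all 6 benchmark libraries and in no first library. That at LINC00383 was called in 6 benchmark libraries and 1 first library, and that near FOXN2 in 5 and 1. A GATA word was present in 2 of the 5 windows, at FAM241A and near FOXN2.

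The benchmark libraries had wider peaks and, apart from ab4729 replicate 1 by MACS2, covered more of the genome, whereas the number of peaks moved in different ways. By MACS2, the ab177178 benchmark libraries held 34897 and 34009 peaks, against 10887 in the first library. The ab4729 benchmark libraries held 21317 and 29019 peaks, on either side of the 25849 in the first library, and those of Diagenode held 21908 and 26833, against 21220. SEACR called 15420 and 15614 peaks in the ab177178 benchmark libraries and 16661 in the first, 14457 and 10930 against 13427 with ab4729, and 11674 and 12587 against 11883 with Diagenode. Only ab177178 showed both benchmark libraries on the same side of the first by both callers, above it by MACS2 and below it by SEACR.

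**Figure D1:**
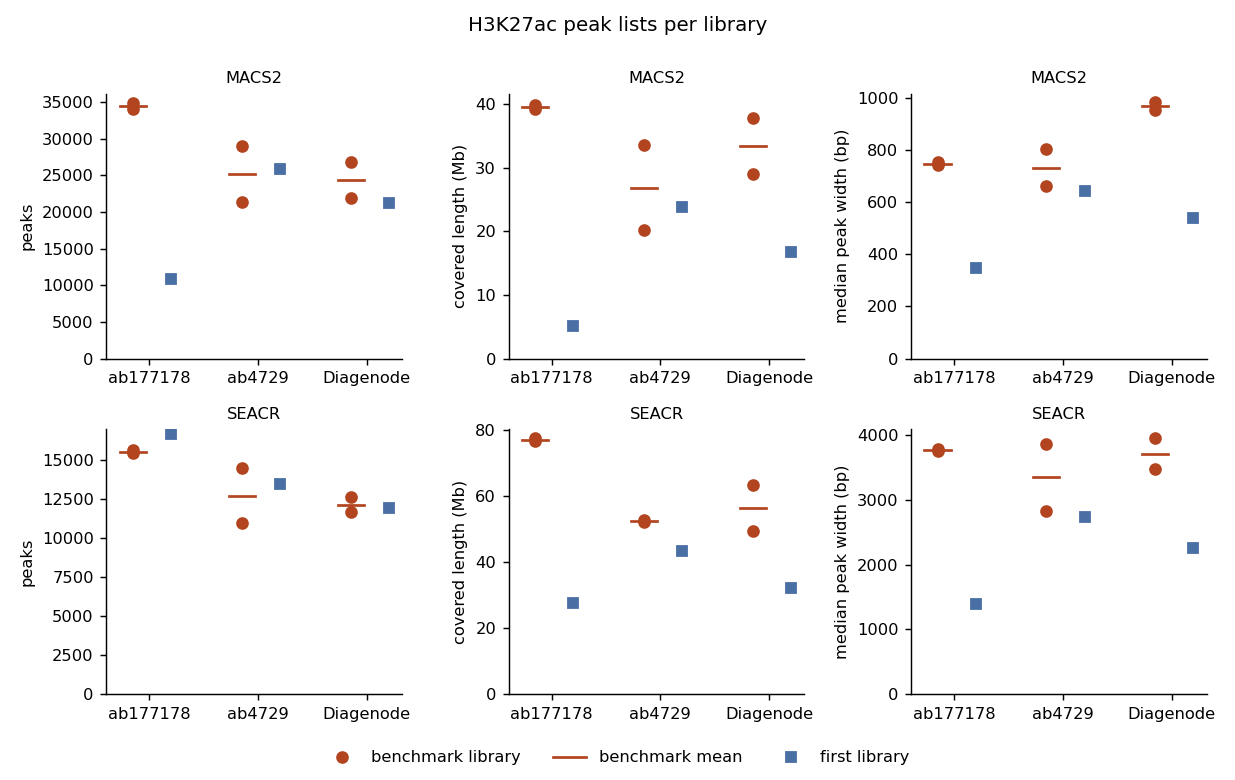
Number of peaks, covered length (Mb) and median peak width (bp) per H3K27ac library for MACS2 (upper row) and SEACR (lower row), with circles for benchmark libraries, a line for their mean and a square for the first library of the antibody. The median width of every benchmark library lies above that of the first library of its antibody, and the first ab177178 list stands far below its benchmark lists by MACS2.

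Median MACS2 peak width was 743 and 756 bp in the ab177178 benchmark libraries against 347 bp in the first, 664 and 804 bp against 645 bp with ab4729, and 957 and 985 bp against 541 bp with Diagenode. The SEACR widths were 3758 and 3792 bp against 1393 bp, 2833 and 3864 bp against 2736 bp, and 3472 and 3963 bp against 2256 bp in that order. All 6 benchmark libraries were thus wider than the first library of their antibody by both callers. On the log2 scale, the mean difference in median width over the 3 antibodies was 0.71 by MACS2 and 0.81 by SEACR, each the most extreme of the 27 ways of naming 1 library of each antibody as the first (exact two-sided permutation test, p = 0.037 for each, the smallest p the design allows, and adjusted p = 0.074 over 12 tests). No test here could pass an adjusted threshold of 0.05 unless most of the 12 reached that floor, and none did.

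Covered length by MACS2 was 39.9 and 39.3 Mb in the ab177178 benchmark libraries against 5.05 Mb in the first, 20.2 and 33.6 Mb against 23.9 Mb with ab4729, and 29.1 and 37.9 Mb against 16.8 Mb with Diagenode. The mean log2 difference was 1.36 (exact permutation p = 0.074, adjusted p = 0.111), and ab4729 replicate 1 covered less than the first library. SEACR covered 76.5 and 77.6 Mb against 27.5 Mb, 52.0 and 52.6 Mb against 43.4 Mb, and 49.4 and 63.2 Mb against 32.0 Mb, a mean log2 difference of 0.85 (exact permutation p = 0.037, adjusted p = 0.074). The number of peaks gave log2 differences of 0.60 by MACS2 (exact permutation p = 0.111, adjusted p = 0.133) and -0.06 by SEACR (p = 0.593, adjusted p = 0.593). SEACR signal, the pileup of fragments, moved with these differences with 2 of 3 antibodies. Per bp of peak it was 10.8 and 10.5 in the ab177178 benchmark lists against 3.63 in the first, 10.9 and 14.1 against 6.90 with Diagenode, but 6.54 and 9.77 on either side of 8.30 with ab4729. Its part in the widths was not tested.

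In the full lists, gained regions were most frequent with ab177178. Of 25724 regions that MACS2 called in both ab177178 benchmark libraries, 19136 were absent from the first library (74.4%). With Diagenode the count was 6317 of 18708 (33.8%), and with ab4729 it was 3139 of 16686 (18.8%). By SEACR the counts were 5975 of 13317 with ab177178 (44.9%), 2183 of 10486 with Diagenode (20.8%) and 1287 of 10090 with ab4729 (12.8%). The order of the 3 antibodies was the same by both callers in the full lists. At equal list length, however, MACS2 gave 5147 regions with ab177178 and 5255 with Diagenode. With replicate 1 left out, and regions taken from replicate 2 alone, the MACS2 counts were 25503 with ab177178, 11373 with ab4729 and 12913 with Diagenode, and without replicate 2 they were 26424, 4805 and 7614. By SEACR, ab4729 gave 3602 regions without replicate 2, and Diagenode 3641 without replicate 1.

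**Figure D2:**
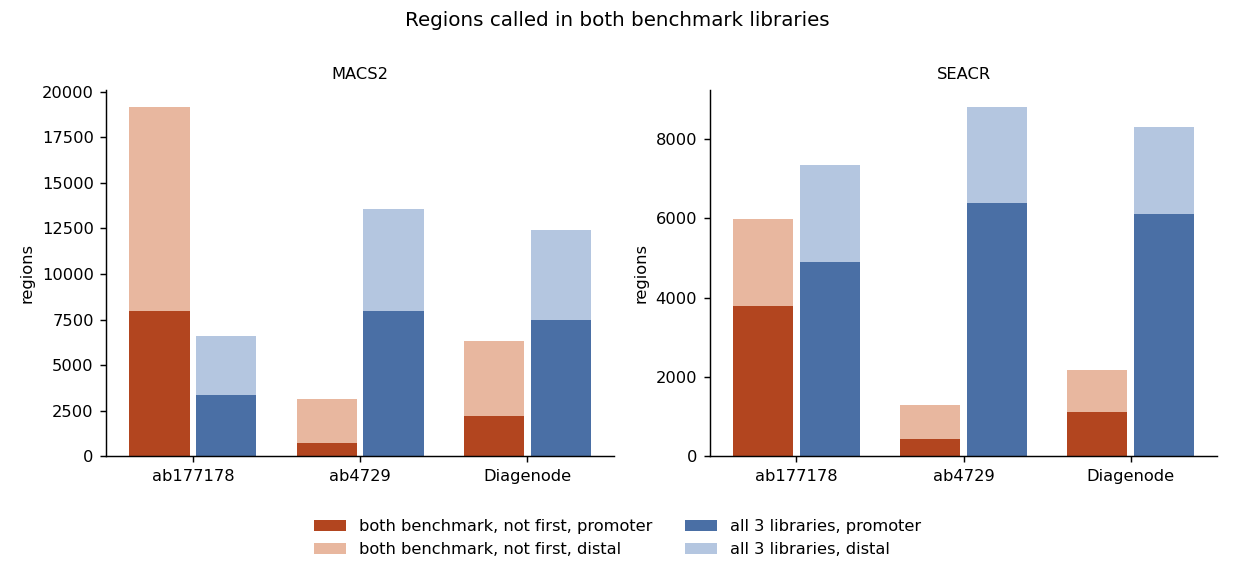
Regions called in both benchmark libraries of an antibody, by MACS2 (left) and SEACR (right), split into those absent from the first library (orange) and those called in all 3 libraries (blue), with dark bars for promoter and light bars for distal regions. Gained regions outnumber those of all 3 libraries with ab177178 by MACS2 alone, 19136 against 6588.

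Absence from the first library was set against absence from a single benchmark replicate. With ab177178, 19136 MACS2 regions lacked the first library alone, whereas 290 lacked replicate 1 alone and 288 lacked replicate 2 alone. With Diagenode the counts were 6317, 975 and 129. With ab4729 they were 3139, 3393 and 367, so that replicate 1 missed more regions than the first library did. By SEACR, 5975, 410 and 340 regions lacked the first library, replicate 1 and replicate 2 of ab177178, 2183, 540 and 291 those of Diagenode, and 1287, 314 and 1083 those of ab4729. Over the antibodies the log2 excess was 3.90 by MACS2 (exact permutation p = 0.074, adjusted p = 0.111) and 2.53 by SEACR (exact permutation p = 0.037, adjusted p = 0.074).

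The first libraries also held peaks of their own. MACS2 called 1751 regions in the first ab177178 library that neither benchmark replicate held, 5666 with ab4729 and 3165 with Diagenode, and SEACR called 5281, 2441 and 1604. These were narrow, with MACS2 medians of 275 bp with ab177178, 394 bp with ab4729 and 353 bp with Diagenode. They lay mostly away from promoters, with promoter shares of 16.6%, 19.996% and 13.8% in that order. With ab4729, regions of the first library alone thus outnumbered the 3139 gained ones by MACS2.

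In the full lists, gained regions were narrower than the regions called in all 3 libraries. Their median MACS2 width was 1043 bp with ab177178 (quartiles 680 and 1680 bp), against 1947.5 bp for regions of all 3 libraries. It was 812 bp (595.5 and 1154 bp) against 1665 bp with ab4729 and 964 bp (691 and 1371 bp) against 1912 bp with Diagenode. SEACR gave 3949 against 5242.5 bp, 4006 against 4473 bp and 3783 against 4740 bp in the same order. At equal list length the ab177178 MACS2 median was 1934 bp. Without replicate 1 the median was 504 bp with ab4729 and 640 bp with Diagenode, and without merging it was 433 and 609 bp in that order. A wider region is touched by a peak of the first library more easily, so these widths are partly set by the way regions were chosen and carry no test.

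The promoter share of the gained regions differed between the antibodies in the full lists. The first libraries were not replicated, so antibody and first library cannot be told apart, and the difference was not tested. A region was called promoter when it came within 1500 bp of the outermost annotated start of any gene (GENCODE 44 on hg19), and distal otherwise. By MACS2 41.5% of the gained ab177178 regions were at promoters, against 51.0% of the regions of all 3 libraries. The shares were 22.6% against 58.8% with ab4729 and 34.8% against 60.1% with Diagenode. By SEACR they were 63.6% against 66.9%, 33.6% against 72.4% and 51.1% against 73.5% in the same order. The ab177178 share by MACS2 depended on the length of the lists and was 72.8% when the lists of an antibody were cut to equal length. The ab4729 shares moved to 39.4% by MACS2 and 51.0% by SEACR when the starts of all transcripts were counted, to 13.2% and 19.4% with protein-coding genes alone, and to 52.0% by SEACR in the top 50% by signal.

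The same was seen from the side of the place. Of the promoter regions in both benchmark libraries by MACS2, 70.3% were absent from the first library with ab177178, 8.18% with ab4729 and 22.8% with Diagenode. Of the distal regions, 77.6%, 30.3% and 45.5% were absent in that order. By SEACR, 3799 of 8708 promoter regions (43.6%) and 2176 of 4609 distal regions (47.2%) were absent with ab177178. The counts were 432 of 6809 (6.34%) and 855 of 3281 (26.1%) with ab4729, and 1116 of 7216 (15.5%) and 1067 of 3270 (32.6%) with Diagenode. Distal gained regions lay at a median of 20.8 kb from the nearest protein-coding start with ab177178, 27.2 kb with ab4729 and 27.6 kb with Diagenode, against 28.9, 26.8 and 28.7 kb for distal regions of all 3 libraries. The midpoints of 74.5%, 69.5% and 67.4% of the distal gained MACS2 regions fell within a protein-coding gene, and 15.6%, 13.3% and 10.9% fell in an annotated exon. Distal regions could still lie within 1500 bp of an annotated transcript start further inside a gene. By MACS2 this held for 27.4%, 21.7% and 20.7% of distal gained regions, against 24.5%, 27.2% and 27.9% of distal regions of all 3 libraries. The SEACR shares were 40.4%, 26.2% and 29.1% against 33.8%, 36.3% and 36.5%. Among gained MACS2 promoter regions, 78.7% with ab177178, 58.2% with ab4729 and 73.4% with Diagenode were at a protein-coding start. The others were at starts of non-coding genes or pseudogenes. Among MACS2 promoter regions of all 3 libraries the shares were 74.8%, 81.9% and 81.8%, lower than in gained regions with ab177178 alone.

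Over whole peak lists the promoter share differed in direction between the callers, and neither difference passed the test. By MACS2 it was 37.1% and 37.3% of peaks in the ab177178 benchmark libraries against 38.1% in the first, 46.5% and 40.8% against 45.6% with ab4729, and 47.0% and 41.7% against 47.9% with Diagenode. The mean difference was -2.15 percentage points (exact permutation p = 0.222, adjusted p = 0.242). By SEACR it was 59.6% and 59.4% against 39.0%, 56.0% and 65.0% against 60.7%, and 65.2% and 63.4% against 59.4%, a mean difference of 8.38 points (exact permutation p = 0.111, adjusted p = 0.133). The MACS2 difference turned to 8.51 points when the lists of an antibody were cut to equal length.

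Gained regions ranked lower in the benchmark lists than regions of all 3 libraries, except that many strong ab177178 regions were among them. The median percentile of the best MACS2 peak within its list was 53.7 and 53.3 in the ab177178 benchmark libraries for gained regions, against 82.7 and 81.6 for regions of all 3. With ab4729 it was 31.4 and 42.1 against 65.4 and 75.8, and with Diagenode 33.1 and 42.7 against 68.8 and 75.3. Above the 90th percentile of the benchmark lists, 40.1% of the ab177178 promoter regions and 22.1% of the distal regions were absent from the first MACS2 list. The corresponding shares were 0.2% and 1.2% with ab4729 and 0.8% and 1.6% with Diagenode. By SEACR the shares were 7.3% and 4.4% with ab177178.

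**Figure D3:**
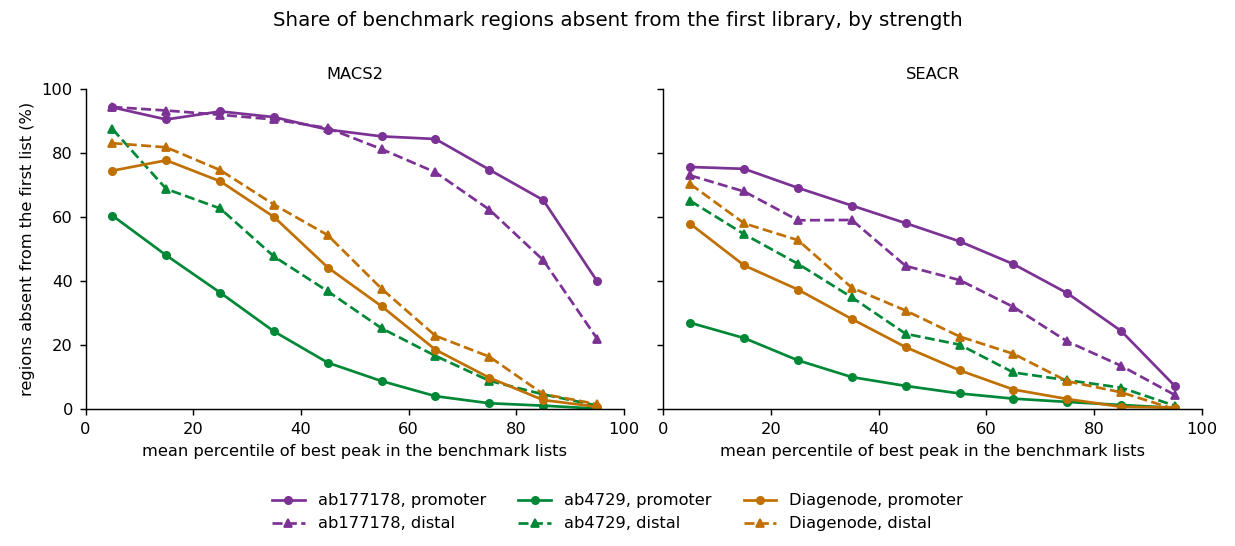
Share of the regions called in both benchmark libraries that were absent from the first library, against the mean percentile of their best peak in the benchmark lists in steps of 10, by MACS2 (left) and SEACR (right), with solid lines for promoter and dashed lines for distal regions. With ab4729 and Diagenode the share falls below 7% above the 80th percentile, while ab177178 promoters remain at 40.1% in the top MACS2 bin.

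The regions at the edge of the rule were few. Of the gained MACS2 regions, 137 with ab177178 (0.716%), 184 with ab4729 (5.86%) and 146 with Diagenode (2.31%) had a peak of the first library within 500 bp, and the median distance to the nearest one was 36.8, 6.22 and 14.5 kb. On the other side of the edge, first-library peaks spanned a median of 25.7% of the width of ab177178 regions of all 3 libraries, 73.9% with ab4729 and 50.3% with Diagenode. In 11.4% of those ab177178 regions they spanned under 10% of the width, against 0.185% with ab4729 and 0.968% with Diagenode. Many first-library ab177178 calls were thus short pieces of benchmark regions.

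The other caller found part of the gained regions in the first library. A SEACR peak of the first library overlapped 21.7% of the MACS2 gained regions with ab177178, 14.1% with ab4729 and 9.9% with Diagenode. A MACS2 peak of the first library overlapped 3.9% of the SEACR gained regions with ab177178, but 50.5% with ab4729 and 37.7% with Diagenode. Absent by both callers were 637 of the 1287 SEACR gained regions of ab4729 and 1360 of the 2183 of Diagenode. Nearly all SEACR gained regions were also called by MACS2 in both benchmark libraries, 97.1% with ab177178, 87.8% with ab4729 and 98.4% with Diagenode.

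The libraries of the other 2 antibodies played no part in choosing an antibody's gained regions. They came from the same 2 stages of the study, however, so they are not an independent readout of the regions. Gained ab4729 regions by MACS2 held a peak in 81.2% and 80.9% of cases in the ab177178 benchmark libraries, against 12.1% in the first ab177178 library. In the Diagenode benchmark libraries they held one in 65.2% and 83.9% of cases, against 11.8% in the first. Gained Diagenode regions held a peak in 81.2% and 81.4% of cases in the ab177178 benchmark libraries, against 10.7% in the first, and in 55.0% and 86.2% in the ab4729 benchmark libraries, against 43.7% in the first. Gained ab177178 regions held one in 64.2% and 76.1% of cases in the Diagenode benchmark libraries, against 43.4%, and in 54.7% and 75.6% in the ab4729 benchmark libraries, against 57.1% in the first. The first ab4729 library thus lay between the 2 ab4729 benchmark libraries on the ab177178 regions.

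Averaged over the antibodies, calls were 44.02 percentage points more frequent in benchmark than in first libraries by MACS2 and 32.2 points by SEACR, each higher with 3 of 3 antibodies and each the most extreme of the 27 arrangements (exact two-sided permutation p = 0.037, adjusted p = 0.074). The regions stayed fixed, as chosen with the actual first libraries, in all 27 arrangements. Since all first libraries share a stage, the test cannot tell stage, depth and choice of regions apart. With the lists of an antibody cut to equal length the MACS2 difference was 22.3 points. The regions of all 3 libraries were also called by MACS2 in the benchmark libraries, in 86.0% to 92.9% of cases against 80.3% and 87.4% in the first libraries for ab177178 regions, in 96.0% to 98.8% against 38.3% and 83.4% for ab4729 regions, and in 88.8% to 98.1% against 39.8% and 96.3% for Diagenode regions, and the ranges overlapped for ab177178 and Diagenode regions. Whether the difference was larger in gained regions was not tested. The covered length of the lists moved with it, and its part was not tested. When a peak had to cover the midpoint of a region, a setting chosen after seeing the data, the differences were 44.4 and 36.7 points.

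**Figure D4:**
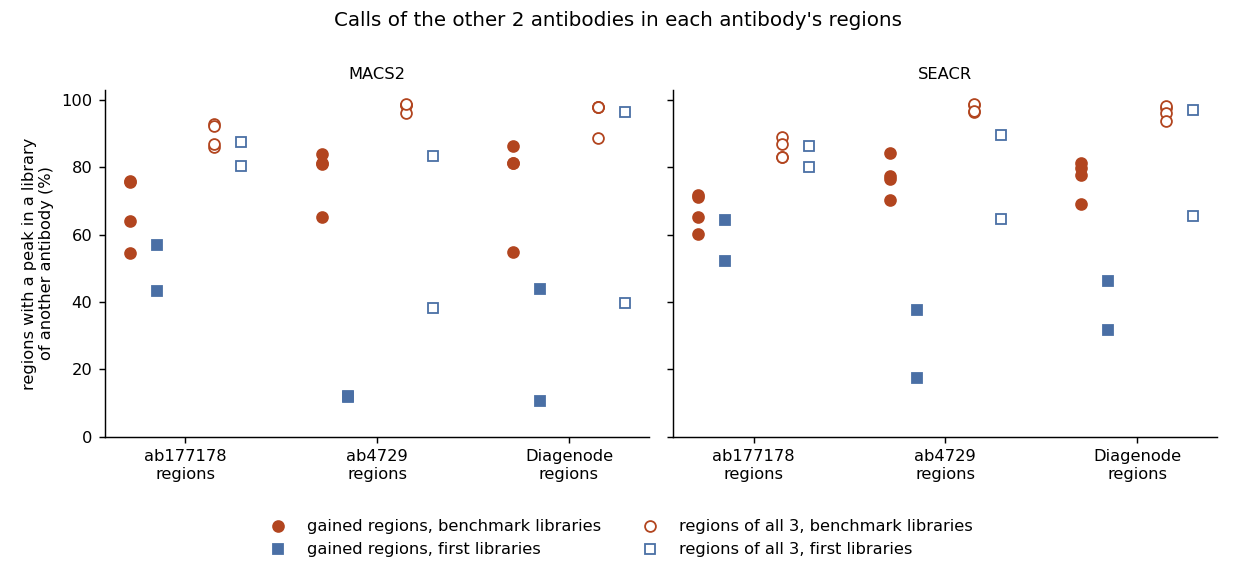
Percentage of an antibody's gained regions (filled) and of its regions called in all 3 libraries (open) that overlapped a peak in each benchmark library (circles) and each first library (squares) of the other 2 antibodies, by MACS2 (left) and SEACR (right). Gained ab4729 regions are called in 65.2% to 83.9% of cases in the benchmark libraries and in 11.8% and 12.1% in the first libraries by MACS2.

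The gained regions of different antibodies overlapped in unequal shares. By MACS2, 59.7% of the gained ab4729 regions overlapped a gained ab177178 region, which took up 9.81% of the gained ab177178 regions, and 48.7% overlapped a gained Diagenode region, 23.8% of the Diagenode set. Of the gained Diagenode regions, 63.5% overlapped a gained ab177178 region, 21.3% of the ab177178 set. Beside this, 74.4% of all regions in both ab177178 benchmark libraries were gained, 33.8% of those of Diagenode and 18.8% of those of ab4729. The overlaps were not tested against these shares. All 4 benchmark libraries of the other antibodies called 47.2% of the gained MACS2 regions of ab177178, 49.7% of those of ab4729 and 46.2% of those of Diagenode, and none of the 4 called 14.9%, 2.58% and 4.18%. Among the regions called in all 6 benchmark libraries, 5864 were missing from the first ab177178 library alone, 300 from the first Diagenode library alone and 43 from the first ab4729 library alone.

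At an overlap of at least 1 bp, other libraries of the series called the gained regions less often than the regions of all 3 libraries. The latter were wider and so more easily touched by a peak. In the 4 ab177178 libraries of the experiment on PCR cycles and extraction, which had SEACR lists only, 18.6% to 25.6% of the gained SEACR regions held a peak, against 49.0% to 58.1% of the regions of all 3 libraries. The ranges were 3.2% to 7.9% against 41.0% to 59.2% with ab4729 and 3.8% to 10.6% against 28.9% to 57.2% with Diagenode. The library of the same antibody made with TSA called 18.6% of the gained against 44.6% of the shared SEACR regions with ab177178, 39.5% against 73.1% with ab4729 and 5.6% against 51.2% with Diagenode. The MACS2 shares with TSA were 1.7% against 14.6%, 6.7% against 34.6% and 0.665% against 26.8% in that order. The benchmark libraries for H3K27me3, the Polycomb repressive mark, called 3.5% and 5.8% of the gained MACS2 regions of ab177178, 4.1% and 5.2% of those of ab4729 and 2.4% and 4.1% of those of Diagenode. The regions of all 3 libraries reached 8.4% and 12.3%, 5.2% and 9.0%, and 4.9% and 8.7% in these libraries.

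The strongest gained promoter regions belonged to genes of varied function. With ab177178 by MACS2 the second in rank lay at FLCN, which encodes the tumour suppressor folliculin (chr17:17138552-17142256, hg19), with fold enrichments of 96.4 and 95.6 in the benchmark libraries and no peak in the first. The first in rank was at a non-coding gene near CDK11A (104.7 and 97.4), and the third lay within UNKL at the start of a non-coding gene (98.8 and 90.2). The first library held a SEACR peak at FLCN and UNKL, but not near CDK11A. With ab4729 the leading gene was BEST1, which encodes the chloride channel bestrophin (chr11:61716664-61718613, 29.1 and 48.1), followed by a region at the microRNA genes MIR3648 and MIR3687 (45.1 and 25.4) and by CHAC1, a glutathione-degrading enzyme (24.7 and 26.8). The authors left out hg19 blacklisted regions, but no blacklist was used here. Whether the region at the microRNA genes would have been left out was not checked. With Diagenode they were VHL, the substrate receptor of the ubiquitin ligase that targets HIF (chr3:10183152-10185626, 43.2 and 63.3), and, at rank 3, PSIP1, a chromatin reader (43.9 and 52.9). SEACR called the VHL region in the first Diagenode library and did not call those at BEST1, CHAC1 and PSIP1 in the first library of their antibody.

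By SEACR the 3 highest gained promoter regions of ab177178 were at MNT, a MAX-binding repressor (maximum signal 68 and 59 fragments), NUP153, a nucleoporin (141 and 143), and LMNTD2 with RASSF7 (66 and 46). The first ab177178 library held neither a SEACR nor a MACS2 peak in these. With ab4729, FES, a tyrosine kinase of myeloid cells, lay at the second in rank (16 and 19) and in the widest of all its gained regions, 18314 bp (chr15:91419778-91438091). With Diagenode, CSNK1D, a casein kinase, was at rank 3 (68 and 90). The widest gained regions were 35253 bp centred in TCOF1 with ab177178, and 22167 bp at AIMP2 and PMS2 with Diagenode.

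Several distal regions recurred between antibodies. The region near DRD4 was the second highest gained distal region of ab177178 and the highest of ab4729 and of Diagenode by MACS2. A region with FOXN2 as nearest gene (chr2:48371784-48374330) was second with ab4729 (42.9 and 44.7) and at rank 3 with Diagenode (54.4 and 63.3). The widest gained MACS2 region of ab4729 (5324 bp) was centred in an intron of CARM1, an arginine methyltransferase that acts on histone H3. Distal SEACR regions at rank 3 with ab4729 and rank 2 with Diagenode were centred in CARM1 introns as well. The 3 highest distal SEACR regions of ab177178 were centred in introns of BCOR, LONP1 and ZNF217. They were 17905, 23558 and 17960 bp wide in that order, so they were not confined to those introns. They count as distal by the outermost gene starts alone, and other transcript starts inside them were not checked.

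At the gene level, 20163 protein-coding promoters were scored for a peak within 1500 bp of the start. MACS2 called 9928 in both ab177178 benchmark libraries, and 7069 of these (71.2%) were not called in the first library, which is 35.1% of all promoters. The counts were 1758 of 9082 with Diagenode (19.4%, or 8.72% of all) and 407 of 8150 with ab4729 (4.99%, or 2.02% of all). SEACR gave 4369 of 9058 with ab177178 (48.2%, or 21.7% of all), 1086 of 7487 with Diagenode (14.5%, or 5.39% of all) and 335 of 7002 with ab4729 (4.78%, or 1.66% of all). In all 3 antibodies together, 223 promoters were gained by MACS2 and 117 by SEACR, while 2522 and 3685 were called in all 9 libraries.

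BBC3, which encodes the pro-apoptotic protein PUMA, led the promoters gained with all 3 antibodies by both callers. Its MACS2 fold enrichment was 55.3 and 47.2 in the ab177178 benchmark libraries, 38.5 and 35.0 with ab4729 and 53.7 and 84.6 with Diagenode, and no first library had a peak there. SEACR maximum signal was 92 and 78, 52 and 50, and 76 and 137 fragments in that order, again with no peak in a first library. INHA, the alpha subunit of inhibin, had fold enrichments of 48.2 and 43.0, 28.4 and 39.2, and 55.1 and 82.1. MXRA8, a cell adhesion protein, had 55.9 and 49.0, 27.6 and 42.6, and 39.1 and 55.4. At these 3 promoters every benchmark library stood in the top 10% of its list.

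The other MACS2 promoters among the first 10 were those of LRP8, an apolipoprotein E receptor, TSPOAP1, TMEM216, CHAC1, ECHDC3, AP5B1, a subunit of an adaptor complex, and C3orf18. TSPOAP1 differed between replicates, with 61.4 and 11.0 in the Diagenode benchmark libraries. By SEACR, BBC3 was followed by EGFL7, a secreted regulator of vessel growth (86 and 77 with ab177178, 8 and 68 with ab4729, 58 and 100 with Diagenode), TSKS, and ID3, an inhibitor of basic helix-loop-helix factors (39 and 46, 20 and 50, 29 and 58). EMILIN1 and KHK, the fructose kinase, shared 1 block of signal and are not separate observations. C22orf15, DCXR, a gene without a symbol on chromosome 19 and ZBTB12 completed the 10.

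The gene lists were read against the background of all promoters called in both benchmark libraries, of which 71.2% were absent from the first list with ab177178, 19.4% with Diagenode and 4.99% with ab4729 by MACS2. These lists were described by counts and not tested. Of 14 erythroid transcription factor genes, 13 were called in all 6 MACS2 benchmark lists. With ab177178, 7 of the 13 were gained, and with ab4729 and Diagenode 0 of 13 were. GATA1, KLF1, TAL1, NFE2, LYL1 and SOX6, regulators of erythroid genes, were called in all 9 MACS2 lists. GFI1B, a transcriptional repressor, was gained with ab177178 by both callers. Its fold enrichments were 31.5 and 31.1 in the ab177178 benchmark libraries, with no peak in the first. It was called in the other 6 libraries, at 13.8 and 26.1 in the ab4729 benchmark libraries against 13.4 in the first and at 31.4 and 28.6 in those of Diagenode against 10.5. IKZF1, MYB, ZBTB7A and ZFPM1 followed the same pattern, and BCL11A, the repressor of fetal globin genes, was called in no library.

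Among the globins, HBB, the adult beta-globin gene, was called in no library, and HBG1 and HBZ, fetal and embryonic genes, were called in all 9 by both callers. HBQ1 was gained with ab177178 and Diagenode by both callers, at 14.3 and 12.5 in the ab177178 benchmark libraries and 15.3 and 15.8 in those of Diagenode. HBA2, an adult alpha-globin gene, was gained with ab177178 by both callers (13.1 and 11.4) and with ab4729 by SEACR, but HBA1 and HBA2 are near-identical and reads can be split between them. HBE1 and HBG2 had the same peak values, since the annotation places the outermost starts of both next to each other, far upstream of the genes themselves. All genes were scored at that outermost start alone, so a promoter further inside a gene does not enter these counts.

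Of the heme synthesis genes, 7 of 12 called by MACS2 were gained with ab177178, 3 of 12 with ab4729 and 4 of 12 with Diagenode. By SEACR it was 6 of 11, 1 of 10 and 1 of 9, beside 48.2%, 4.78% and 14.5% of all promoters called. ALAS1, the housekeeping form of the first enzyme of the pathway, was gained with all 3 antibodies by MACS2, at 10.7 and 13.1 in the ab177178 benchmark libraries, 8.00 and 13.1 with ab4729 and 11.2 and 14.6 with Diagenode. ALAD, the second enzyme, was gained with all 3 likewise (14.9 and 13.1, 12.4 and 16.5, 11.2 and 15.2). Both sat low in fold enrichment. SLC25A39 was gained with ab177178 and Diagenode by both callers, and SLC25A38, the mitochondrial glycine carrier, was gained with ab177178 (35.7 and 37.6) and, by MACS2, with ab4729 (13.1 and 19.9). CPOX, PPOX, UROD and UROS were called in all 9 libraries by both callers.

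Of the iron handling genes, 5 of 10 called by MACS2 were gained with ab177178, 0 of 9 with ab4729 and 1 of 10 with Diagenode. SLC40A1, the iron exporter ferroportin, was gained with ab177178 by both callers (35.1 and 30.5), and FTH1, FTL and TFR2 were called in all 9 libraries. Among red cell membrane genes, 6 of 13 called by MACS2 were gained with ab177178, 1 of 12 with ab4729 and 5 of 16 with Diagenode. EPB42 (protein 4.2) was gained with ab177178 and Diagenode by both callers, at 9.52 and 13.7 and at 11.2 and 11.6. SPTB (beta-spectrin) was gained with ab177178 by both callers and with ab4729 by SEACR, and XK with ab177178 by both callers and with Diagenode by MACS2. GYPE was gained with Diagenode by both callers and with ab177178 by MACS2, but it has near copies in the genome, and reads can be split between them.

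**Figure D5:**
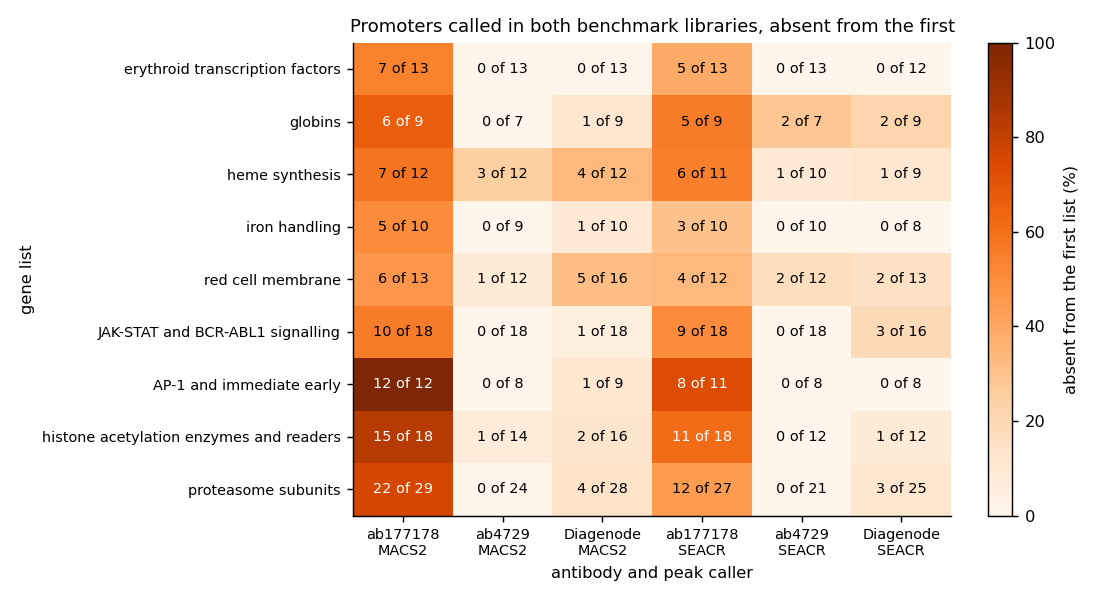
Protein-coding promoters of 9 gene lists called in both benchmark libraries of an antibody, with the number absent from its first library written in each cell and the percentage as colour, for MACS2 (left 3 columns) and SEACR (right 3 columns). AP-1 and immediate early genes reach 12 of 12 with ab177178 by MACS2 and 0 of 8 with ab4729.

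AP-1 and immediate early genes, which encode transcription factors switched on quickly by signals, were gained at 12 of 12 called promoters with ab177178 by MACS2, 0 of 8 with ab4729 and 1 of 9 with Diagenode. By SEACR it was 8 of 11, 0 of 8 and 0 of 8. EGR1 had fold enrichments of 69.0 and 56.2 in the ab177178 benchmark libraries and no peak in the first. In the other sets it was called throughout, at 18.2 and 23.4 in the ab4729 benchmark libraries against 14.9 in the first and at 43.9 and 48.1 in those of Diagenode against 14.6. JUND had 60.1 and 50.2 with ab177178 and no peak in the first, against 22.5 and 45.3 beside 30.6 in the first ab4729 library. DUSP1 and JUNB gave the same pattern of calls. FOS was gained with ab177178 (23.8 and 20.3) and Diagenode (14.6 and 12.8) by MACS2, while with ab4729 it was missing from replicate 1 and present in replicate 2 and the first library.

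The JAK-STAT and BCR-ABL1 list was gained at 10 of 18 promoters with ab177178, 0 of 18 with ab4729 and 1 of 18 with Diagenode by MACS2. GRB2, the adaptor that links BCR-ABL1 to RAS, was gained with ab177178 and Diagenode by both callers (28.0 and 21.5, 20.9 and 24.9), and BCR, STAT5A and STAT5B were called in all 9 libraries. Of the enzymes and readers of histone acetylation, 15 of 18 called by MACS2 were gained with ab177178, 1 of 14 with ab4729 and 2 of 16 with Diagenode. CREBBP, the acetyltransferase CBP that deposits H3K27ac, was the 1 gained with all 3 antibodies by MACS2 (17.9 and 22.1, 10.2 and 12.4, 12.6 and 15.2). Its paralogue EP300 was gained with ab177178 alone (30.9 and 24.5). Proteasome subunit genes, expressed in every cell, were gained by MACS2 at 22 of 29 promoters with ab177178, 0 of 24 with ab4729 and 4 of 28 with Diagenode. PSMD4 and PSMD6 were gained with ab177178 and Diagenode by both callers.

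Of all 20163 promoters, 9244 were called in none of the 9 libraries by MACS2 and 9692 in none by SEACR. The gene lists were counted by a stricter rule, no call by either caller, so their counts are not directly comparable with these. By that rule, 14 of 15 neuronal, 10 of 12 liver, 7 of 9 B cell and 7 of 12 T cell genes were called in no library. The same was true of 12 of 15 megakaryocyte and platelet genes and of 31 of 39 HOX genes. Those that were gained included SLC17A7, a glutamate transporter, with ab177178 by both callers (16.1 and 14.3), CD3D with ab177178 and Diagenode by MACS2, and CD22 with ab4729 by MACS2 and with Diagenode by SEACR. Of the genes used as qPCR controls, ZMYND8, a positive control in the study, was called in all 9 libraries by both callers. KLHL11, a negative control, was gained with ab177178 and Diagenode by MACS2 (8.33 and 13.1, 8.37 and 14.0). SIGIRR, also a negative control, was called by SEACR in 1 benchmark library, and the positive controls ARHGAP22 and COX4I2 in none. Calls were scored at the outermost start and not at the amplified sites, so they do not show whether those sites held peaks.

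Sequence composition was compared between gained and shared regions in 200-base windows around the summit. Distal gained MACS2 regions held AGATAA or TGATAA in 19.2% of windows with ab177178, against 20.2% of distal regions of all 3 libraries, in 19.7% against 26.0% with ab4729 and in 23.04% against 23.8% with Diagenode. The SEACR shares were 18.8% against 21.1%, 24.3% against 25.7% and 24.8% against 23.5%, so that the direction with Diagenode differed between callers. The AP-1 word TGANTCA was present in 10.5% against 13.7%, 9.06% against 13.1% and 9.23% against 13.6% of distal windows in that order. It was less frequent in the gained distal windows of all 3 antibodies by both callers, as was CCGGAAG, with SEACR shares of TGANTCA of 11.3% against 14.8%, 11.1% against 13.8% and 10.1% against 13.9%. These are descriptions of letters in windows and carry no test.

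At promoters, GGGCGGG was found in 28.1% of gained against 23.5% of shared windows with ab177178, 24.9% against 32.7% with ab4729 and 26.2% against 27.1% with Diagenode, beside 32.9% of 20141 windows centred on protein-coding starts. CCGGAAG was found in 6.47% against 8.09%, 4.93% against 9.22% and 6.64% against 7.17%, beside 10.1% of those starts. CCAAT was found in 16.7% against 15.6%, 14.8% against 18.1% and 15.1% against 15.1%, beside 25.8%, and CACGTG in 4.21% against 4.16%, 5.35% against 4.62% and 3.82% against 3.89%, beside 5.86%. The NRF1 motif was rare, in 0.491% against 0.238%, 0.282% against 0.615% and 0.500% against 0.403%, beside 1.23%. At least 10 CpG dinucleotides were present in 68.9% of gained against 62.2% of shared promoter windows with ab177178, in 45.8% against 75.8% with ab4729 and in 64.2% against 72.6% with Diagenode. Gained ab4729 promoters were thus the poorest in CpG of the 3 sets, with a median of 8 CpG per window against 16 in the shared ones.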

How the data were processed

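Peak lists of the 9 H3K27ac libraries were analysed, 18 in all. The authors trimmed reads with Trim Galore 0.6.6, mapped the pairs against hg19 (Bowtie2 2.2.9), removed PCR duplicates with Picard 2.6.0, kept original and deduplicated alignments, and handled files with SAMtools 1.3.1 and bedtools 2.25.0, per the labels and the study's methods. They called peaks per library with MACS2 (narrow peaks at q of 1e-05, no local background) and SEACR (top fraction 0.01). Which of both alignments gave the deposited lists is not given in the sources used here, and the stringency of SEACR is given in 2 ways and was not settled. The deposited MACS2 lists hold a score, a fold enrichment and −log10 p and −log10 q values, and the deposited SEACR lists hold the total and maximum signal, the pileup of fragments. The authors left out hg19 blacklisted regions in their own analysis, and no blacklist was used here. The lists carry no read totals, so no depth per library was computed. Peaks too weak for the callers are not listed, and absence from a list is no measure of absence of signal.

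Analysis was limited to the autosomes and sex chromosomes (348592 of 351388 peaks over the 18 lists), and no peak passed a chromosome end of GRCh37. Peaks were merged at an overlap of 1 bp and annotated with GENCODE 44, using pysam 0.24.0, scipy 1.17.1, pandas 2.3.3 and numpy 2.4.6 under Python 3.11.15. Benchmark and first libraries were compared by an exact two-sided permutation test over the 27 ways of taking 1 of the 3 libraries of each antibody as the first, and 12 p-values were adjusted together by Benjamini-Hochberg. Percentiles rank a peak within its list by −log10 q (MACS2) or total signal (SEACR). Gained regions were chosen by calls, and their width, place, genes and sequence were described without a test. Their number and the calls of other antibodies in them did enter the 12 tests. Named regions were the 3 highest promoter, 3 highest distal and 3 widest gained regions per antibody and caller, and named genes were up to 10 promoters gained with all 3 antibodies and, per gene list (16 lists), up to 4 members gained most often. Genes named as called in all libraries or in none were added for contrast. The regions, lists and rules were chosen with earlier results of these data known. Alternatives merged peaks within 1000 bp or not at all, cut lists to equal length, used stricter lists (−log10 q of 10, or the top 50% of signal), promoters of 3000 bp, or left out a replicate. The code was tested on simulated peak lists. Identical intervals made up at most 0.188% of any pair of lists of an antibody, so that no list was a copy of another. Some genes and sequences that these rules picked are not reported here.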

Additional observations from a re-analysis of the deposited data

How the results depend on the processing

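None of the 12 tests passed an adjusted threshold of 0.05 in any alternative, which the small number of arrangements largely fixes and which says nothing about stability. The direction changed in 3 cases. The MACS2 promoter share difference, -2.15 points, became 8.51 points at equal list length and 0.84 points with stricter lists, and the SEACR log2 difference in peak number, -0.06, became 0.011 without ab4729 replicate 2. Leaving out 1 replicate in turn left 18 arrangements with a smallest p of 0.056, so that no test could pass. It gave log2 ranges of 0.53 to 0.67 (MACS2) and -0.12 to 0.011 (SEACR) for peak number, 1.24 to 1.48 and 0.79 to 0.91 for covered length and 0.67 to 0.76 and 0.74 to 0.88 for width. The promoter share then ran over -3.09 to -1.20 and 6.89 to 9.88 points, and calls of other antibodies over 35.7 to 43.7 and 28.9 to 32.2 points. No paired analysis was possible because each antibody has 1 first library and it carries no replicate number.

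Counts of gained regions moved more. At equal list length, the ab177178 MACS2 count was 5147 against 19136, and its gained promoters were 4207 against 7069, while those of ab4729 were 619 against 407 by MACS2 and 506 against 335 by SEACR. Stricter lists gave 1990 against 3139 regions (ab4729, MACS2) and, by SEACR, 3266 against 5975 (ab177178), 817 against 1287 (ab4729) and 1281 against 2183 (Diagenode), fewer peaks having been compared. Absence by both callers gave 637 (ab4729) and 1360 (Diagenode) SEACR regions. Calling a region from 1 benchmark replicate gave 25503 to 26424 and 7112 to 7244 regions with ab177178 by MACS2 and SEACR, 4805 to 11373 and 1625 to 3602 with ab4729, and 7614 to 12913 and 2532 to 3641 with Diagenode. The wide ab4729 ranges come from replicate 1 and replicate 2 alone, with 11373 MACS2 regions without replicate 1 and 3602 SEACR regions without replicate 2. Gained promoters then ran over 7309 to 7360 and 4609 to 4681, 464 to 1073 and 442 to 711, and 1847 to 2291 and 1257 to 1544 in the same order. A single first library per antibody, peak lists without read totals and calls that depend on thresholds limit all of these values.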

Other observations

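Chromosome 22 was at an end of the order of autosomes by MACS2. With ab4729, 37.6% of the MACS2 regions called in both benchmark libraries there were absent from the first library, the highest share of any autosome, and with Diagenode 46.2%, also the highest. With ab177178 the share was 63.5%, the lowest of any autosome. By SEACR it was again the highest with ab4729 (22.3%), but chromosomes 13 (33.1%) and 17 (29.5%) stood above it with Diagenode (28.7%), and 6 autosomes, among them chromosome 1 (33.2%), stood below it with ab177178 (43.1%). The segment from the centromere to the end of BCR (chr22:23521891-23660224, hg19), the gene at the fusion point of K562 cells, held 171 of the 231 gained ab4729 regions of the chromosome.

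Up to the end of BCR, 171 of 366 MACS2 regions were gained with ab4729 (46.7%), against 60 of 248 on the rest of the chromosome (24.2%) and 18.1% on all other chromosomes. With ab177178 it was 230 of 510 (45.1%) against 352 of 407 (86.5%) and 74.8%. With Diagenode, 124 of 261 (47.5%) stood against 136 of 302 (45.0%) and 33.4%. By SEACR the shares up to BCR were 10.6% with ab177178, 26.96% with ab4729 and 24% with Diagenode, against 61.4%, 19.2% and 31.4% beyond it. The segment was singled out after its values were seen, the difference was not tested, and copy number was not measured here.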
